A study of Mus musculus with 6 samples.

Results

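The lysosome genes described here are 34 genes that encode the proton pump, the degradative enzymes, the membrane proteins and the master transcription factor of the lysosome. They were picked by name from the 56674 gene rows of a liver count table, with no measured value in the rule, and all 34 were found. They fall into 8 subunits of the V1 sector of the vacuolar proton pump (V-ATPase), 5 subunits of its V0 sector, 9 cathepsins, 7 other enzymes or enzyme activators, and 5 membrane proteins, channels or regulators. The RNA came from livers of male C57BL/6 mice, a common inbred strain, at 71 weeks of age. Control mice (3 samples) ate normal chow, and PP-MP mice (3 samples) ate chow that held polypropylene microplastic. No engineered allele is named for either group, and the labels name no dose, particle size or start of exposure. The series asks how long exposure to polypropylene microplastic bears on gene expression in the liver. The labels do not say that the samples of a diet are separate animals, so p-values measure only the spread between these samples, which may be technical.

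Lysosomes are acidic compartments that break down proteins, lipids, glycogen and glycoconjugates delivered by endocytosis and autophagy. The V-ATPase acidifies them: its cytosolic V1 sector hydrolyses ATP, and the energy drives protons through the membrane-embedded V0 sector. In the liver, hepatocytes use lysosomes for autophagy and for lipid taken up in lipoproteins, and Kupffer cells, the resident macrophages, use them to digest engulfed material. TFEB is a transcription factor that binds E-box elements in the promoters of many lysosome genes and raises their expression when it enters the nucleus.

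The E-box that TFEB binds, CACGTG, was searched for in the RefSeq promoters of these genes, each 300 bases long from 250 before to 50 after a transcript start on build GRCm38.p6. Of the 34 genes, 27 matched an entry by symbol, with 33 promoters. Asah1, Atp6v1b2, Atp6v1c1, Atp6v1g1, Atp6v1h, Ctsb and Ctsh had no entry in the table. On either strand, the 7-letter form TCACGTG was found in 9 of the 33 promoters (27.3%), against 3.77% of 32851 promoters of all genes in the table. Counted by gene, it was found for 33.3% of the 27 lysosome genes, 18.1% of 105 other lysosome genes and 6.60% of 11763 genes that were tested for expression. The 8-letter palindrome TCACGTGA, which contains the 7-letter form, was found for 22.2% of the lysosome genes and 2.01% of the tested genes. The shorter core CACGTG, which the longer forms contain, was found for 40.7% and 11.1%. The 6 genes with the palindrome are shown as 30-base windows, 5′ to 3′ on the strand of the gene, with the match in capitals, because they hold the fullest form of the element that was searched.
Atp6v1a: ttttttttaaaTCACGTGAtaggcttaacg
Atp6v0d1: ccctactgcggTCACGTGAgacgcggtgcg
Atp6v0e: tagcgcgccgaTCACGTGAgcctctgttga
Ctsa: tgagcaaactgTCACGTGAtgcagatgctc
Ctsd: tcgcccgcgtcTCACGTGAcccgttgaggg
Mcoln1: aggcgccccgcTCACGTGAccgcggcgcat

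On GRCm38.p6 these windows lie at chr16:44139373-44139402 (minus strand) for Atp6v1a, chr8:105566050-105566079 (minus strand) for Atp6v0d1 and chr17:26676387-26676416 (plus strand) for Atp6v0e. Those of the other genes lie at chr2:164833749-164833778 (plus strand) for Ctsa, chr7:142387908-142387937 (minus strand) for Ctsd and chr8:3500462-3500491 (plus strand) for Mcoln1. The match shown began at position −132 from the transcript start in Atp6v1a, −99 in Ctsd, −46 in Mcoln1, −13 in Ctsa, −4 in Atp6v0d1 and 2 in Atp6v0e. Ctsa held a second palindrome at position 4, and Ctsd and Mcoln1 each held a further 7-letter form, at −245 and −72. Lamp1, which encodes the most abundant of these transcripts per exon length, had 4 copies of the 7-letter form within 74 bases at chr8:13159087-13159160 (plus strand), ending at its transcript start. The stretch is shown because its matches lie closest together, with each match in capitals.
Lamp1: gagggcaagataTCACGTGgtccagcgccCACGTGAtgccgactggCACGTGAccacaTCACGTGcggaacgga

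Atp6v0b and Gaa held the 7-letter form without the palindrome, and Ctsf and Ctsl held the core alone. A match describes the letters in this window and is not a measured binding site. The median fitted log2 fold change, PP-MP over control, was −0.21 over the 9 genes with TCACGTG and −0.15 over the 18 genes with a promoter in the table and no such match. These medians were −0.29 and −0.23 without control 2, −0.22 and −0.056 without control 1, and −0.067 and −0.059 without control 3. With library totals they were 0.025 and 0.070.

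Libraries held 68357478 to 112566641 counts on genes. Hepatocyte markers (8 genes, among them Apoa1 and Ttr) summed to 68850 to 82980 CPM (counts per 1e6 counts, with library sizes adjusted by TMM factors) in control and 73550 to 87970 in PP-MP, so the defining transcripts of the labelled tissue were present in every library. Alb alone held 47410 to 56470 CPM in control and 47020 to 58010 CPM in PP-MP. Of the 8, 4 were fitted higher and 4 lower. Apoa1 stood at 1165, 1191 and 3693 CPM in control 1 to 3 and at 9670, 3559 and 7457 CPM in PP-MP 1 to 3. Among the libraries, 2 stood apart. In control 2, the ribosomal RNA row Rn18s-rs5 took 11.2% of counts, against 0.655% to 2.92% elsewhere. PP-MP 1 had the highest summed markers of Kupffer cells, recruited macrophages and neutrophils. It also had the highest sum of B and plasma cell markers, at 389 CPM, of which 338 CPM was Ighm, and without Ighm the sum was 51.1 CPM, below the 58.4 CPM of control 2.

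None of the 34 lysosome genes differed between the diets at an adjusted p under 0.05 in the quasi-likelihood test of edgeR, nor in DESeq2. The call itself was rare: 2 of 18284 genes, or 0.0109%, passed it in edgeR and 4.26% of 18227 genes passed it in DESeq2. Adjusted p-values of the lysosome genes ran from 0.244 to 0.998 in edgeR. With counts scaled by TMM factors, 27 of the 34 were fitted lower in PP-MP and 7 higher, with a median log2 fold change of −0.16 against 0.03 over all genes, and with library totals in place of these factors the median was 0.07. That change of scale moved the median of all genes to 0.26, so that the lysosome median lay 0.187 below the median of all genes in the former case and 0.193 below it in the latter. This distance varied with other settings. With TMM factors, the lysosome median minus that of all genes was −0.13 among genes at a mean CPM of at least 1. It was −0.24 without a filter on low counts, −0.12 without control 3 and −0.32 without control 2. Relative to all genes, 28 of the 34 lay below the median with TMM factors and 29 with library totals. In bulk liver RNA, fewer cells of a type and less RNA per cell cannot be told apart.

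At an unadjusted p under 0.05, 3 of the 34 were lower (Atp6v1h, Lipa and Hexa), beside 5.81% of all genes, and 1 was higher (Ctsc), beside 8.05% of all genes. With TMM factors, every PP-MP library lay below every control library for 5 of the 34 (Atp6v1h, Ctsh, Lipa, Hexa and Lamp1), beside 9.79% of all genes, and above for none, beside 12.2% of all genes. With library totals the separation turned: Atp6v1h alone stayed apart and lower, beside 2.59% of all genes, and 4 genes were apart and higher (Ctsc, Ctsl, Ctsz and Mcoln1), beside 24.5% of all genes. Under that scaling the groups of Ctsh, Lipa, Hexa and Lamp1 overlapped. For 29 of the 34 genes the 95% interval stayed inside 2-fold in either direction, beside 46.3% of all genes, and the exceptions were Ctsc, Ctsd, Ctss, Lipa and Hexa. The distance from the fitted value to either end of that interval had a median of 0.40 for the lysosome genes and 0.73 for all genes. These sets were not matched by level. The lysosome genes had means of 8.17 to 575 CPM, while the genes tested included some below 1 CPM.

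**Figure D1:**
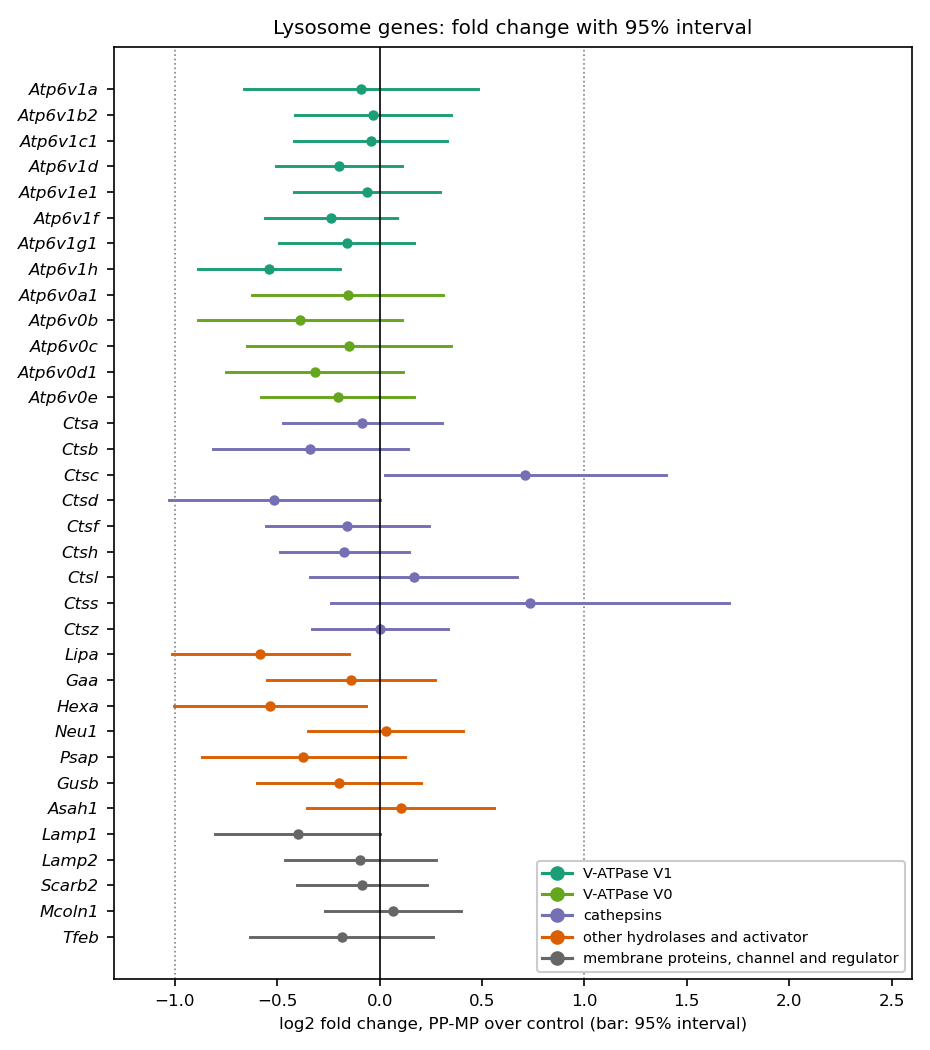
Fitted log2 fold change (PP-MP over control, TMM factors) of the 34 lysosome genes on the horizontal axis, coloured by role, with 95% intervals as bars and dotted lines at 2-fold. With this scaling 27 points lie below 0, of which 17 lie above 0 with library totals, and the intervals of Atp6v1h, Lipa, Hexa and Ctsc do not cross 0.

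How far the groups separated depended on control 2. Over the 34 genes, the median deviation from the control mean on the log2 scale was 0.10, −0.21 and 0.11 in control 1 to 3, and −0.22, −0.12 and −0.12 in PP-MP 1 to 3. Control 2 thus sat with the PP-MP libraries for these genes, while over all genes the same medians ran from 0.005 to 0.06. Without control 2, 22 of the 34 had every PP-MP library below both remaining control libraries, beside 19.3% of all genes, and 30 were fitted lower, with a median of −0.23 and adjusted p-values from 0.119. Without control 2 the log2 fold change went to −0.56 for Atp6v0b, −0.30 for Atp6v0c, −0.27 for Atp6v0a1, −0.47 for Ctsb, −0.28 for Ctsf, −0.51 for Psap, −0.26 for Gaa and −0.30 for Tfeb. In the same order of genes, it was −0.28, −0.048, −0.063, −0.27, −0.045, −0.25, −0.034 and −0.10 without control 1. Without control 3 it was −0.27, −0.046, −0.072, −0.21, −0.083, −0.30, −0.067 and −0.092. Without control 3 the median of the 34 was −0.07. The part of the high ribosomal RNA share of control 2 in this was not tested.

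**Figure D2:**
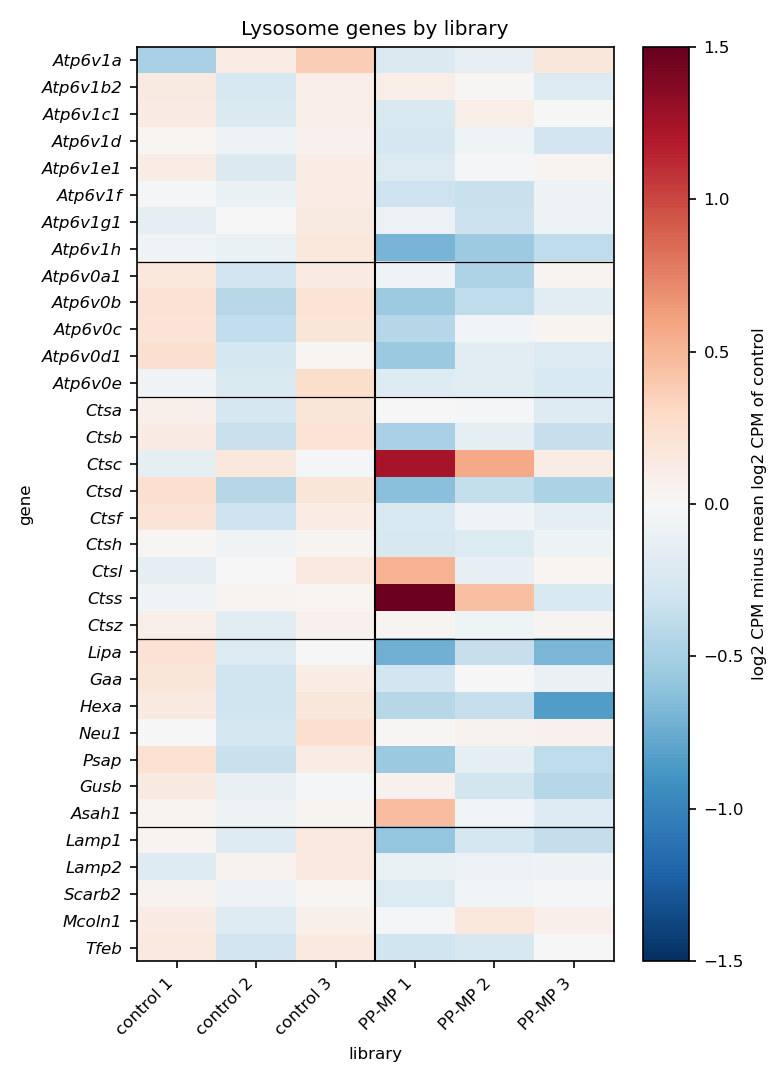
Deviation of each library from the control mean (log2 CPM, colour scale) for each lysosome gene (rows, in blocks by role). Control 2 is blue for most genes, as are the PP-MP libraries, and the deepest red cells are Ctsc and Ctss in PP-MP 1.

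All 8 V1 subunits were fitted lower in PP-MP with TMM factors, with a median of −0.13 (−0.03 without control 3), and with library totals only Atp6v1f and Atp6v1h among them stayed below 0. The H subunit, Atp6v1h, which couples the sectors and restrains ATP hydrolysis by free V1, had the smallest p-value of the 34 genes. Atp6v1h stood at 41.8, 40.7 and 48.9 CPM in control 1 to 3 and at 26.9, 30.0 and 33.6 CPM in PP-MP 1 to 3. The lowest control library was above the highest PP-MP library. Its log2 fold change was −0.54 (SE 0.15, 95% interval −0.89 to −0.19), with an unadjusted p of 0.00818 and an adjusted p of 0.244 in edgeR and 0.0531 in DESeq2. Leaving out each library in turn gave −0.43 to −0.62, with adjusted p-values of 0.1375 to 0.500 in edgeR. Of its exonic length, 5.84% overlaps Rgs20 on the opposite strand, and no source used here says whether counting used strand.

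Atp6v1f, a central stalk subunit, stood at 45.1, 42.8 and 49.5 CPM in control 1 to 3 and at 37.0, 36.2 and 43.5 CPM in PP-MP 1 to 3. PP-MP 3 overlapped control 2, and the log2 fold change was −0.24 (SE 0.14, adjusted p = 0.473). Atp6v1d, the rotor shaft subunit, ranged from 22.7 to 25.2 CPM in control and from 19.8 to 23.2 CPM in PP-MP (log2 fold change −0.20). Here too the ranges met only at control 2 and PP-MP 2. Atp6v1e1, a peripheral stalk subunit and the most abundant V1 transcript per exon length, stood at 88.8, 71.0 and 88.9 CPM in control 1 to 3 and at 71.5, 81.4 and 85.1 CPM in PP-MP 1 to 3. All PP-MP values lay between control 2 and the other controls, and the log2 fold change was −0.06 (SE 0.15).

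The subunits that bind ATP overlapped between the diets. Atp6v1a, the catalytic A subunit, ranged from 20.4 to 37.1 CPM in control and from 24.6 to 32.2 CPM in PP-MP (log2 fold change −0.09), so PP-MP lay inside the control range. Atp6v1b2, the B subunit, ranged from 30.7 to 40.0 CPM in control and from 31.4 to 38.99 CPM in PP-MP (log2 fold change −0.03), again inside it. The stalk subunits Atp6v1c1 (22.5 to 28.6 CPM in control, 22.4 to 28.1 in PP-MP) and Atp6v1g1 (35.1 to 42.3 CPM in control, 30.9 to 36.8 in PP-MP) had log2 fold changes of −0.04 and −0.16 and overlapped as well.

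All 5 V0 subunits were fitted lower with TMM factors, with a median of −0.21 (−0.07 without control 3), and with library totals Atp6v0b and Atp6v0d1 alone stayed below 0. Each had at least 1 PP-MP library inside the control range. Atp6v0b, the proteolipid also called c″, stood at 55.0, 35.5 and 54.8 CPM in control 1 to 3 and at 32.5, 36.3 and 42.3 CPM in PP-MP 1 to 3. Control 2 sat among the PP-MP libraries, and the other controls above them. For Atp6v0b the log2 fold change was −0.39 (SE 0.21, adjusted p = 0.453). Atp6v0d1, which joins the V1 stalk to the proteolipid ring and has the palindrome at its start site, stood at 77.8, 54.9 and 67.2 CPM in control 1 to 3 and at 44.8, 58.4 and 57.1 CPM in PP-MP 1 to 3. Control 2 again lay among the PP-MP values, and the log2 fold change was −0.32 (SE 0.18, adjusted p = 0.474).

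Atp6v0c, the main proteolipid of the proton-carrying ring and the most abundant V0 transcript per exon length, stood at 104, 70.8 and 103 CPM in control 1 to 3 and at 67.9, 88.8 and 94.3 CPM in PP-MP 1 to 3. The groups overlapped through control 2, and the log2 fold change was −0.15 (SE 0.21). Counts on its pseudogene Atp6v0c-ps2 came to 11.1% to 13.3% of those on Atp6v0c, so its value is uncertain by how reads were shared between them. Atp6v0a1, an isoform of the membrane subunit through which protons pass, ranged from 16.2 to 22.0 CPM in control and from 14.3 to 20.3 CPM in PP-MP (log2 fold change −0.16). Atp6v0e, a small membrane subunit, ranged from 26.2 to 36.6 CPM in control and from 26.0 to 27.2 CPM in PP-MP (log2 fold change −0.21), a narrow band at the control minimum.

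The liver libraries used nearly a single isoform of most pump subunits, measured per kb of exon. Atp6v1b2 was the B isoform throughout, since Atp6v1b1, best known from kidney and inner ear, had 0 counts in all 6 libraries, as did the G isoform Atp6v1g3, which allows up to 3 counts in each. Over all libraries together, Atp6v1c2 had 4 counts and Atp6v1e2 had 3. Atp6v1g1 made up 97.3% to 98.5% of the G transcripts, Atp6v0e 96.1% to 97.4% of the e transcripts and Atp6v0d1 92.1% to 97.2% of the d transcripts. The a subunit was the exception. Atp6v0a1 made up 29.5% ± 2.32 of it in control and 31.3% ± 5.003 in PP-MP (SD, n = 3), Atp6v0a2 36.2% ± 0.914 and 31.6% ± 4.37, and Tcirg1, the a3 isoform, 34.02% ± 2.33 and 36.6% ± 4.04. Atp6v0a4 reached at most 1.08%. The shares of Atp6v0a1, Atp6v0a2 and Tcirg1 overlapped between the diets, as did those of the d and e isoforms. The G shares did not. Atp6v1g1 made up 98.4% ± 0.129 of the G transcripts in control and 97.65% ± 0.478 in PP-MP, and Atp6v1g2 1.6% ± 0.129 and 2.35% ± 0.478. Atp6v1g2 had 648 counts over all libraries, and the difference in share was not tested.

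Of the 9 cathepsins, 5 were fitted lower and 4 higher with TMM factors, with a median of −0.08, whereas with library totals only Ctsb and Ctsd stayed below 0 and the median was 0.15. With each library left out the TMM median ran from −0.18 without control 2 to 0.038 without control 3. Ctsd, the main aspartic protease of lysosomes and the most abundant cathepsin transcript per exon length, stood at 516, 321 and 492 CPM in control 1 to 3 and at 280.3, 339 and 311 CPM in PP-MP 1 to 3. Control 2 lay between PP-MP 2 and PP-MP 3, while the other controls lay well above all PP-MP libraries. Ctsd had a log2 fold change of −0.51 (SE 0.22, 95% interval −1.03 to 0.002) with an adjusted p of 0.361. It was −0.69 without control 2 and −0.38 without control 1, and its adjusted p ran from 0.119 to 0.685 with each library left out. Of its exonic length, 31.5% is shared with the gene model Gm49369 on the same strand.

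Ctsb, a cysteine protease, stood at 601.5, 437 and 638 CPM in control 1 to 3 and at 392, 498 and 434.5 CPM in PP-MP 1 to 3. The pattern was that of Ctsd, with control 2 among the PP-MP libraries, and the log2 fold change was −0.34 (SE 0.20, adjusted p = 0.484). Ctsh, an aminopeptidase, ranged from 231 to 247 CPM in control and from 203 to 228 CPM in PP-MP without overlap, at a log2 fold change of −0.17 (SE 0.13, adjusted p = 0.581). Both its direction and its separation depended on the scaling, since with library totals the log2 fold change was 0.058 and the groups overlapped. Ctsa, a carboxypeptidase that also shields neuraminidase from degradation, ranged from 139.5 to 190 CPM in control and from 145 to 167 CPM in PP-MP (log2 fold change −0.08). Ctsf, a cysteine protease, ranged from 22.9 to 32.6 CPM in control and from 24.3 to 27.4 CPM in PP-MP (log2 fold change −0.16). For both, PP-MP lay inside the control range.

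Ctsc and Ctss had the highest fold changes of the 34, and both were highest in PP-MP 1. For both, PP-MP 2 also lay above all controls. Ctsc, the dipeptidyl peptidase that activates granule proteases of immune cells, stood at 36.1, 44.2 and 38.6 CPM in control 1 to 3 and at 93.3, 58.6 and 42.6 CPM in PP-MP 1 to 3. PP-MP 3 lay inside the control range. The log2 fold change was 0.71 (SE 0.29, 95% interval 0.02 to 1.396), with an unadjusted p of 0.0442 and an adjusted p of 0.353, and it was 0.35 without PP-MP 1. That value was still the highest of the 34 without PP-MP 1. Ctss, a protease of antigen-presenting cells, stood at 14.7, 15.8 and 15.6 CPM in control 1 to 3 and at 42.7, 20.9 and 13.1 CPM in PP-MP 1 to 3. PP-MP 3 lay below all controls. Its log2 fold change was 0.73 (SE 0.41, adjusted p = 0.464) and 0.14 without PP-MP 1.

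The order of the PP-MP libraries for both genes was that of the Kupffer cell marker sum. The same order held for the sums of recruited macrophage, neutrophil, B and plasma cell, sinusoidal endothelial and cholangiocyte markers. It was thus not particular to Kupffer cells. The sums of hepatocyte, stellate cell, and T and NK cell markers had other orders. The 9 T and NK cell markers summed to 5.87 to 8.21 CPM in control and to 4.19 to 5.82 CPM in PP-MP. Of these, 8 were tested and 7 fitted lower, and none had a mean above 1.09 CPM. With TMM factors 3 were apart and lower, beside 9.79% of all genes, and 1 higher, beside 12.2%. With library totals 1 was apart and lower and 1 higher, beside 2.59% and 24.5%. In PP-MP 1 to 3, endothelial markers summed to 149.7, 149.5 and 92.4 CPM and cholangiocyte markers to 23.4, 17.9 and 12.6 CPM. The 12 Kupffer cell markers summed to 247 to 305 CPM in control and to 813, 533 and 306 CPM in PP-MP 1 to 3. All 12 were fitted higher in PP-MP, with a median log2 fold change of 1.02, and of 0.49 without PP-MP 1. With TMM factors 3 of the 12 were apart and higher, beside 12.2% of all genes. With library totals 5 were, beside 24.5% of all genes. Marco, a scavenger receptor, ranged from 1.56 to 3.53 CPM in control and from 24.2 to 138 CPM in PP-MP. Its adjusted p was 0.183 in edgeR and 2.96e-12 in DESeq2. Timd4, a receptor for apoptotic cells, ranged from 1.02 to 2.47 CPM in control and from 3.41 to 17.8 CPM in PP-MP. Its adjusted p was 0.244 in edgeR and 0.0041 in DESeq2. DESeq2 called 3 of the 12 Kupffer cell markers, all higher, beside 4.26% of all genes, and edgeR called 0. Of the 8 hepatocyte markers DESeq2 called 1, Apoa1, as higher (log2 fold change 1.77 in edgeR). Its adjusted p was 0.039 in DESeq2 and 0.299 in edgeR. Recruited or lipid-associated macrophage markers (12 genes, 7 fitted higher and 5 lower) summed to 54.3 to 87.9 CPM in control and to 67.3 to 213 CPM in PP-MP. Of that, Lyz2 alone held 19.8, 43.1 and 29.4 CPM in control 1 to 3 and 158, 69.8 and 41.2 CPM in PP-MP 1 to 3. The median log2 fold change of these 12 genes was 0.19, and −0.26 without PP-MP 1. DESeq2 and edgeR called 0 of them. Lyz2 and Lgals3 had the smallest p among those at a mean CPM of at least 1. Mmp12, at a mean of 0.327 CPM, had a smaller p than Lgals3 and was fitted lower (log2 fold change −0.91). The neutrophil markers (9 genes, 5 tested and all of those fitted higher) summed to 1.34 to 1.86 CPM and to 3.16 to 27.2 CPM, led by S100a9 and S100a8. Ly6g, Mpo and Camp among them were at 0 in the control libraries. DESeq2 called S100a8 (adjusted p = 0.0042, against 0.251 in edgeR) and gave no adjusted p for S100a9. No marker on these lists was at 0 in all libraries. Their part in the values of Ctsc and Ctss was not tested.

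**Figure D3:**
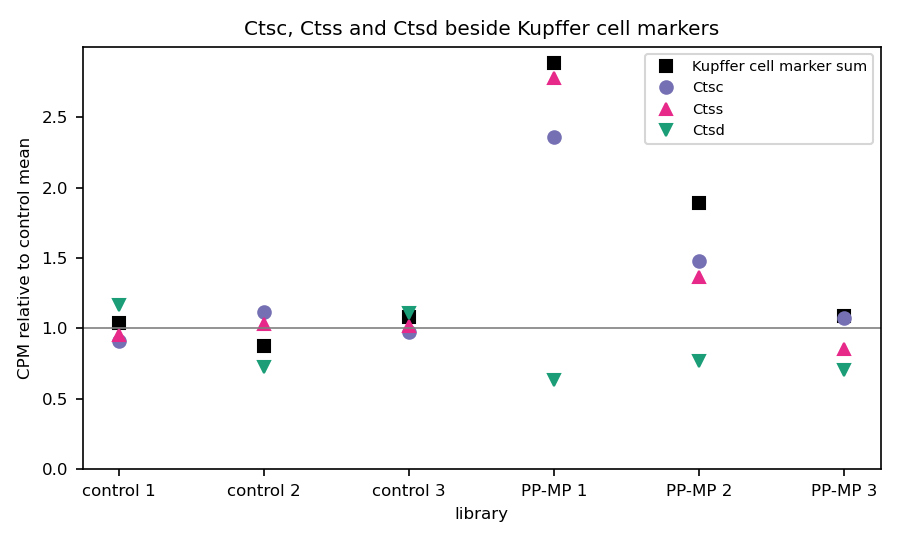
Level of Ctsc, Ctss, Ctsd and the sum of 12 Kupffer cell markers in each library, as CPM relative to the control mean (grey line at 1). Ctsc, Ctss and the marker sum are highest in PP-MP 1 and next highest in PP-MP 2, whereas Ctsd lies below 1 in control 2 and in every PP-MP library.

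Ctsl, a cysteine endopeptidase, ranged from 463 to 562 CPM in control and from 468 to 731 CPM in PP-MP, with the maximum in PP-MP 1 (log2 fold change 0.17, and −0.05 without PP-MP 1). Other gene models overlap 28.2% of its exonic length. Ctsz, a carboxypeptidase, ranged from 211 to 251 CPM in control and from 225 to 243 CPM in PP-MP, with a log2 fold change of 0.00 (SE 0.14, 95% interval −0.33 to 0.33). Its PP-MP values lay inside the control range.

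Of the 7 other hydrolases and activators, 5 were fitted lower with TMM factors, with a median of −0.20 (−0.11 without control 1), and Lipa, Hexa and Psap stayed below 0 with library totals. Lipa, lysosomal acid lipase, which frees cholesterol and fatty acids from lipoprotein esters, stood at 343, 256 and 295.5 CPM in control 1 to 3 and at 180.3, 232 and 185 CPM in PP-MP 1 to 3. All PP-MP libraries lay below all controls with TMM factors and overlapped them with library totals. Lipa had a log2 fold change of −0.58 (SE 0.18, 95% interval −1.01 to −0.15), the lowest of the 34, with an unadjusted p of 0.0153 and an adjusted p of 0.280 in edgeR and 0.0777 in DESeq2. Leaving out each library in turn gave −0.46 to −0.71, with adjusted p-values of 0.144 to 0.541 in edgeR. Hexa, the alpha subunit of beta-hexosaminidase, which degrades gangliosides, stood at 78.4, 58.0 and 80.2 CPM in control 1 to 3 and at 53.1, 56.4 and 39.9 CPM in PP-MP 1 to 3. Control 2 was the lowest control and lay just above PP-MP 2. The log2 fold change was −0.54 (SE 0.20, 95% interval −1.01 to −0.07), with an unadjusted p of 0.0304 and an adjusted p of 0.325.

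Psap, the precursor of the saposins that present sphingolipids to their hydrolases, is the most abundant transcript of this group per exon length. Its level was 682, 462 and 630.0 CPM in control 1 to 3 and 396, 528 and 447 CPM in PP-MP 1 to 3. Control 2 lay below PP-MP 2, and the log2 fold change was −0.37 (SE 0.21, adjusted p = 0.466). Gaa, the acid glucosidase that degrades glycogen, ranged from 88.0 to 123 CPM in control and from 88.7 to 107 CPM in PP-MP (log2 fold change −0.14). Gusb, beta-glucuronidase, ranged from 23.5 to 27.9 CPM in control and from 19.0 to 26.6 CPM in PP-MP (log2 fold change −0.20, and −0.35 without PP-MP 1), and both genes overlapped between the diets.

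The sialidase Neu1 and the acid ceramidase Asah1 were the only genes of this group fitted higher. Neu1 ranged from 34.4 to 49.3 CPM in control and from 42.0 to 43.1 CPM in PP-MP (log2 fold change 0.03), all PP-MP values lying near the middle of the controls. Asah1 ranged from 23.1 to 25.0 CPM in control and from 21.3 to 33.5 CPM in PP-MP (log2 fold change 0.10, and −0.12 without PP-MP 1).

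**Figure D4:**
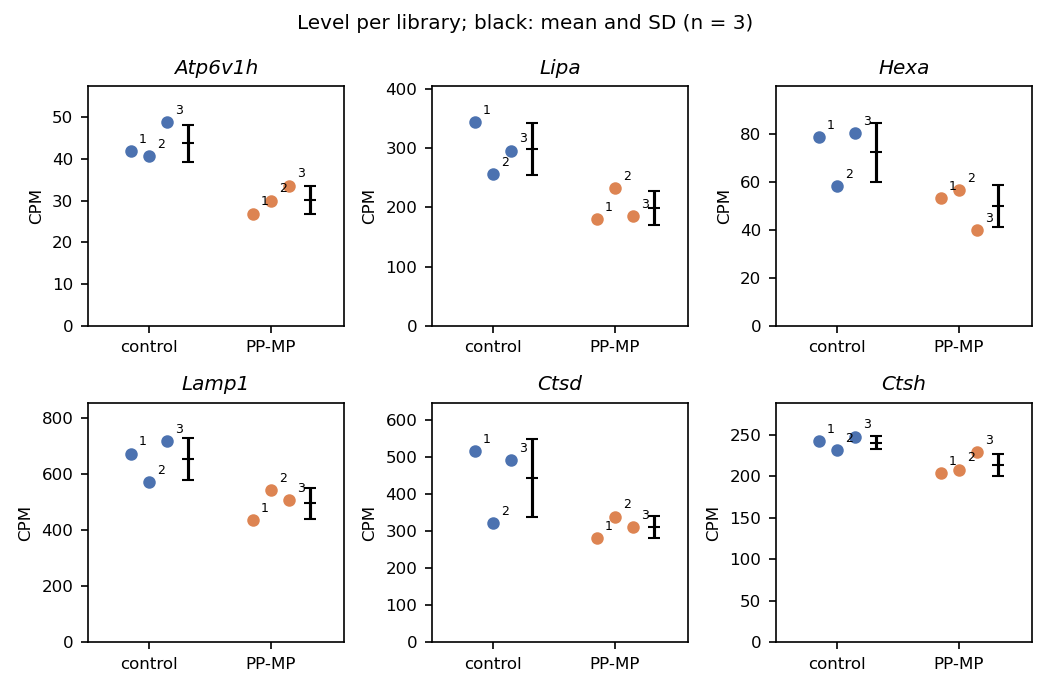
CPM per library (coloured points, numbered by replicate) with mean and SD (black, n = 3) for Atp6v1h, Lipa, Hexa, Lamp1, Ctsd and Ctsh. With this TMM scaling the groups are apart for every gene shown but Ctsd, and with library totals for Atp6v1h alone. For Ctsd, control 2 (321 CPM) lies below PP-MP 2 (339 CPM).

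Lamp1, a heavily glycosylated protein that lines the lysosomal membrane and whose promoter stretch is printed above, stood at 673, 572 and 719 CPM in control 1 to 3 and at 437, 544 and 507 CPM in PP-MP 1 to 3. All controls lay above all PP-MP libraries with TMM factors, and the groups overlapped with library totals. Lamp1 had a log2 fold change of −0.40 (SE 0.17, 95% interval −0.80 to 0.002), with an unadjusted p of 0.0510 and an adjusted p of 0.361. With library totals its fold change stayed below 0. Of the exonic length, 7.94% overlaps Grtp1 on the opposite strand. Lamp2, its relative that also serves in autophagy, ranged from 502 to 636 CPM in control and from 539 to 546 CPM in PP-MP, at −0.09 on the log2 scale (SE 0.15). PP-MP lay inside the control range, and whether the fold changes of Lamp1 and Lamp2 differ from each other was not tested.

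Scarb2, which carries glucocerebrosidase to the lysosome, ranged from 175 to 192 CPM in control and from 161 to 184 CPM in PP-MP, at −0.08 on the log2 scale (SE 0.13). The lysosomal cation channel Mcoln1, whose promoter holds the palindrome, ranged from 19.6 to 24.2 CPM in control and from 21.9 to 25.0 CPM in PP-MP, at 0.07 on the log2 scale (SE 0.14). Both genes overlapped. Tfeb itself ranged from 7.05 to 9.53 CPM in control and from 6.995 to 8.66 CPM in PP-MP, at −0.19 on the log2 scale (SE 0.19, adjusted p = 0.676), also with overlap. TFEB is controlled largely by its place in the cell, which RNA does not measure.

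Levels per kb of exon spanned more than 2 orders of magnitude. In control, Lamp1 reached 294 ± 33.7 CPM per kb, Psap 216 ± 41.9, Ctsd 208 ± 49.9 and Ctsz 164 ± 14.99 (SD, n = 3), while Tfeb was at 2.17 ± 0.355. In PP-MP the corresponding levels were 222 ± 24.4 for Lamp1, 166 ± 24.3 for Psap, 146 ± 13.8 for Ctsd, 164 ± 6.84 for Ctsz and 1.90 ± 0.221 for Tfeb. Within libraries, Psap lay above Ctsd per kb in every library but control 3, where they stood at 229.6 and 231.3 CPM per kb. Whether the levels of Psap and Ctsd differ was not tested. Within the pump, levels per kb in control ran from 4.91 ± 0.796 for Atp6v0a1 to 73.8 ± 15.2 for Atp6v0c. Lengths come from GENCODE M21, and with the longest transcript in place of all exons Lamp2 moved from 115 to 160.5 CPM per kb and Ctsc from 7.44 to 12.3.

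**Figure D5:**
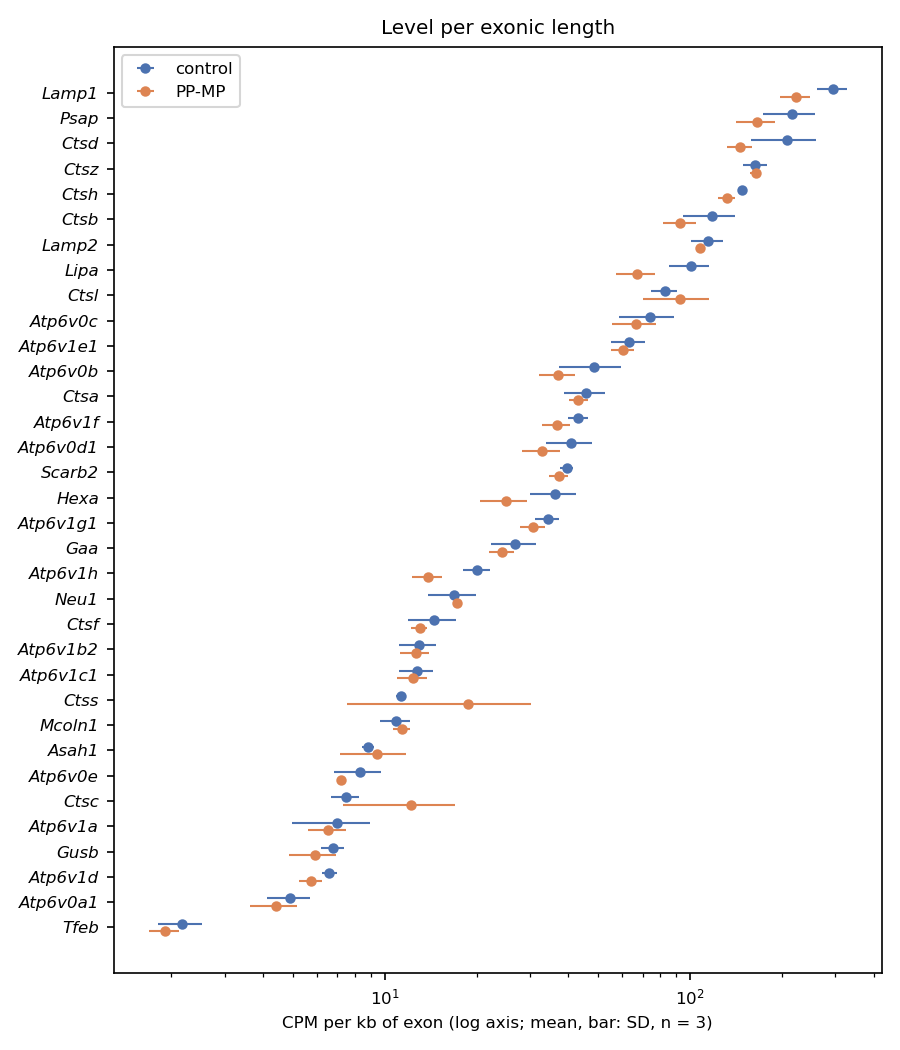
Level per exon length of each lysosome gene in control and PP-MP, as mean CPM per kb with SD (n = 3) on a log axis, ordered by the control level. Lamp1, Psap and Ctsd lead in control and Tfeb is lowest.

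Other lysosome genes lay near the same median. Of 131 such genes listed, 125 were tested, 85 of them fitted lower and 40 higher with TMM factors, with a median log2 fold change of −0.14, and with library totals 36 were fitted lower and 89 higher, with a median of 0.084. None passed the edgeR threshold (smallest adjusted p = 0.183). At an unadjusted p under 0.05, 10 of the 125 were lower, beside 5.81% of all genes, and 3 higher, beside 8.05%. DESeq2 called 4, beside 4.26% of all genes: Gm2a lower, and Arsg, Slc38a9 and Gga3 higher. With TMM factors, every PP-MP library lay below every control for 25 of the 125, beside 9.79% of all genes, and above for 7, beside 12.2%. With library totals these counts were 2 and 17, beside 2.59% and 24.5% of all genes. The median by list with TMM factors, above 0 for every list with library totals, was −0.12 for other V-ATPase genes, −0.14 for other hydrolases and cofactors, −0.07 for other membrane proteins, −0.18 for sorting receptors and enzymes, −0.15 for relatives and regulators of TFEB and −0.19 for autophagy genes.

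Gm2a encodes the activator that lifts GM2 ganglioside out of the membrane for the hexosaminidase made from Hexa. It stood at 107, 84.8 and 94.4 CPM in control 1 to 3 and at 57.5, 57.2 and 55.5 CPM in PP-MP 1 to 3. The log2 fold change of Gm2a was −0.75 (SE 0.13, adjusted p = 0.183 in edgeR and 0.000256 in DESeq2), and it lay between −0.64 and −0.81 with each library left out. The sulfatase Arsg stood at 12, 10.4 and 7.04 CPM in control 1 to 3 and at 19.7, 23.0 and 20.1 CPM in PP-MP 1 to 3 (log2 fold change 1.09, adjusted p = 0.183 in edgeR and 0.00194 in DESeq2). Both genes had groups apart, in opposite directions. The sulfatase Arsb (log2 fold change −0.65) and the sialic acid esterase Siae (−0.56) lay below all controls in every PP-MP library with TMM factors only, and other gene models cover 59.7% of the exonic length of Arsb.

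The arginine sensor Slc38a9 stood at 6.31, 7.22 and 5.77 CPM in control 1 to 3 and at 9.81, 9.26 and 10.1 CPM in PP-MP 1 to 3 (log2 fold change 0.60, adjusted p = 0.235 in edgeR and 0.0259 in DESeq2). Gga3, an adaptor that sorts mannose 6-phosphate receptors, stood at 4.42, 3.88 and 4.10 CPM in control 1 to 3 and at 6.202, 6.87 and 7.60 CPM in PP-MP 1 to 3 (log2 fold change 0.74, adjusted p = 0.212 in edgeR and 0.00701 in DESeq2). All PP-MP libraries of both genes lay above all controls. Among other membrane proteins, the sialic acid exporter Slc17a5 (log2 fold change −0.39), Laptm4b (−0.52) and Laptm4a (−0.36) had every PP-MP library below every control, which with library totals held for Slc17a5 alone. Of the sorting genes, the receptor M6pr (−0.20) was apart, whereas Gga2 (−0.37) and Ap1g1 (−0.18) overlapped, and M6pr and Ap1g1 turned to 0.039 and 0.051 with library totals.

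Within the pump, the a2 isoform Atp6v0a2 stood at 33.97, 29.0 and 33.3 CPM in control 1 to 3 and at 20.4, 26.0 and 24.6 CPM in PP-MP 1 to 3 (log2 fold change −0.44, adjusted p = 0.300). Its groups were apart, but overlapped with library totals. Atp6v1g2 (log2 fold change 0.40), the accessory subunit Atp6ap1 (−0.19) and Tcirg1 (−0.13) were the next by p-value, none with an adjusted p under 0.508, and Atp6ap1 and Tcirg1 turned to 0.039 and 0.10 with library totals. Lamtor1, Lamtor4, Lamtor5 and Lamtor2, subunits of the Ragulator complex that anchors mTORC1 to the lysosome, had log2 fold changes of −0.44, −0.38, −0.30 and −0.35, each with every PP-MP library below every control with TMM factors and with overlap under library totals. Their adjusted p-values ran from 0.318 to 0.379. Of the autophagy genes, the ATG8 relative Gabarapl2 (−0.35) and the beclin partner Uvrag (−0.24) were apart, and the ATG8 relatives Map1lc3a (−0.52) and Gabarapl1 (−0.53) overlapped. With library totals the groups of Gabarapl2 and Uvrag overlapped too, and Uvrag was at 0.000275.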

How the data were processed

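The deposited table and the 6 identical per-sample files hold raw read counts per gene symbol from 6 liver samples. Per the labels' protocols, libraries were directional and made from poly(A) RNA; per the submitters' processing notes, bcl2fastq and GRCm39 were used. For the aligner, counter, strand setting and annotation: not given in the sources used here. Titles and characteristics define the groups, because PS-MP stands in the treatment protocol of all samples.

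Counts were filtered with filterByExpr, scaled by TMM factors (0.882 to 1.12) and tested with the robust two-sided quasi-likelihood F test of edgeR 4.0.16 (R 4.3.3), with Benjamini-Hochberg adjustment over 18284 genes at a threshold of 0.05. SE and 95% intervals come from that fit. Alternatives were DESeq2 1.42.0 and its size factors, limma 3.58.1 voom, library totals, a filter at a mean CPM of 1, no filter, a replicate block, the data without mitochondrial, haemoglobin and ribosomal RNA genes, and each library left out. Leaving out control 2 and PP-MP 1 together was added after seeing the data. No 2 libraries of a group were duplicates (chi-square per degree of freedom 154 to 928). Symbols on several rows (67 symbols, 0.0304% of counts) were kept row by row. Exonic lengths and overlaps come from GENCODE M21 (GRCm38). Python 3.11.15, pandas 2.3.3, NumPy 2.4.6 and matplotlib 3.10.9 made the tables and figures.

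The members and lists were chosen with earlier results of these data known. All 34 lysosome genes are named; values for every library are given for the 12 of smallest p and the most abundant of each role. Of other lysosome genes, at most 4 per list of smallest p with a mean CPM of at least 1 are named. By the same rule, 2 genes are named for the hepatocyte, Kupffer cell, recruited macrophage and neutrophil marker lists.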

Additional observations from a re-analysis of the deposited data

How the results depend on the processing

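No lysosome gene reached an adjusted p under 0.05 under any alternative run, and the smallest adjusted p in DESeq2 was 0.0531. Scaling by library totals gave a median log2 fold change of 0.069 over the 34 genes, a reversal that accompanied the shift of all genes given above. The same change of scale turned Atp6v1a to 0.14, Atp6v1b2 to 0.20, Atp6v1c1 to 0.18, Atp6v1d to 0.037, Atp6v1e1 to 0.16, Atp6v1g1 to 0.070, Atp6v0a1 to 0.064, Atp6v0c to 0.072, Atp6v0e to 0.025, Ctsa to 0.15, Ctsf to 0.069, Ctsh to 0.058, Gaa to 0.087, Gusb to 0.035, Lamp2 to 0.14, Scarb2 to 0.15 and Tfeb to 0.037. Ctsz was −0.018 with DESeq2 size factors and in DESeq2. Atp6v1b2 was 0.0046 with a filter at a mean CPM of 1 and 0.0082 without a filter. The number of lysosome genes whose groups did not overlap was 5, all lower, and with library totals also 5, of which 4 were higher. It was 3 without a filter on low counts, 6 to 23 with each library left out and 26 without control 2 and PP-MP 1 together, where fewer libraries make separation easier. The 3 without a filter were all lower, beside 5.51% lower over all genes. The 6 without PP-MP 1 and the 7 without control 1 were also all lower, beside 12.9% and 12.8% lower. The 6 without control 3 were 5 lower and 1 higher, beside 12% and 15.9%. The 23 without control 2 were 22 lower and 1 higher, beside 19.3% and 24.8% of all genes; the 9 without PP-MP 2 were all lower, beside 13.4% lower; the 8 without PP-MP 3 were 6 lower and 2 higher, beside 15.2% and 19.2%; and the 26 were 25 lower and 1 higher, beside 24.4% and 29.0%. That last setting also turned Atp6v1a to 0.023, Ctsl to −0.058, Ctsz to −0.091, Neu1 to −0.081 and Asah1 to −0.15. Leaving out each library moved the median of the 34 between −0.23 and −0.07, and gave values on both sides of 0 for Asah1 (−0.12 to 0.23), Atp6v1a (−0.29 to 0.13), Atp6v1b2 (−0.13 to 0.053), Atp6v1c1 (−0.13 to 0.042), Atp6v1e1 (−0.15 to 0.013), Ctsa (−0.19 to 0.038), Ctsl (−0.050 to 0.29), Ctsz (−0.056 to 0.065), Lamp2 (−0.17 to 0.0042), Mcoln1 (−0.0077 to 0.14) and Neu1 (−0.078 to 0.19). Other lysosome genes past the threshold numbered 0 in edgeR and 4 in DESeq2, beside 0.0109% and 4.26% of all genes. The cause of these differences was not tested. No label ties a replicate number in one diet to that in the other, and same-numbered samples correlated at −0.0662, −0.0872 and 0.047 in their deviations. With a replicate block the median was −0.15, 0 genes were called and the smallest adjusted p was 0.457. With 3 samples a group, half-intervals near 0.40 on the log2 scale limit what could be called.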

Other observations

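Some lysosome genes outside the main set had values in single libraries far from the rest, and were chosen here after their values were seen. Ids, the iduronate sulfatase of heparan and dermatan sulfate breakdown, stood at 11.0, 14.6 and 14.8 CPM in control 1 to 3 and at 11.7, 3.89 and 0.00 CPM in PP-MP 1 to 3, with 0 counts in PP-MP 3 and 1179 in PP-MP 1. Abca2, a lipid transporter of late endosomes, stood at 0.317 CPM (23 counts) in control 1 and between 17.1 and 28.1 CPM in the other libraries. Their adjusted p-values in edgeR were 0.684 for Ids and 0.945 for Abca2.

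Among other lysosome genes that macrophages express, 3 more were chosen after their values were seen, since their order among the PP-MP libraries was that of the Kupffer cell marker sum. The marker sums of several other cell types named above shared that order. Lgmn, an asparaginyl endopeptidase, stood at 37.3, 34.6 and 40.7 CPM in control 1 to 3 and at 71.3, 47.7 and 32.5 CPM in PP-MP 1 to 3. Laptm5 stood at 12.8, 12.1 and 10.8 CPM and at 29.6, 19.3 and 8.26 CPM, and Cd68, a macrophage relative of the LAMP proteins, at 4.09, 3.92 and 4.23 CPM and at 8.89, 6.64 and 3.41 CPM. In all of them PP-MP 3 was the lowest of the 6 libraries. Adjusted p-values in edgeR were 0.525 for Lgmn, 0.504 for Laptm5 and 0.457 for Cd68.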
